A study of Mus musculus with 2 samples.

Results

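Complement is a set of secreted and membrane proteins that tag microbes and damaged cells. The 9 complement component genes *C1qa*, *C1qb*, *C1qc*, *C1ra*, *C2*, *C3*, *C4b*, *Cfb* and *Cfp* were taken by name from the 32285 genes counted in single cells of the mouse vomeronasal organ (VNO), the chemosensory organ at the base of the nasal cavity. They were described across macrophages, fibroblasts, endothelial, epithelial and gland cells. All samples were of 1 condition: whole VNOs of wild-type C57 BL/6J male mice at postnatal day 60 (P60), 5 organs in all, dissociated with papain and collagenase and frozen as a cell suspension before droplet capture. The 2 libraries (VNO_1 and VNO_2) held 12814 and 11270 cell barcodes, and the sources do not say how the 5 organs were divided between them. The limits on genes and mitochondrial reads left 5694 and 4898 cells, with medians of 6668 and 6651 unique molecular identifiers (UMIs, each standing for 1 captured transcript). The libraries shared 33 barcode sequences, of which 3 were among the kept cells.

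Complement can be started along the classical, lectin and alternative pathways. In the classical pathway C1q, assembled from the chains of *C1qa*, *C1qb* and *C1qc*, recognises a target and activates the proteases C1r and C1s. These cut C4 and C2, whose fragments form an enzyme that cuts C3, the central component. In the alternative pathway factor B (*Cfb*) pairs with C3b to form a further C3-cutting enzyme, which properdin (*Cfp*) stabilises. The liver is the classic source of most circulating components, and C1q is known as a product of tissue macrophages and related myeloid cells.

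Cells were assigned to 15 named classes from marker genes, and the members and the other genes of a 54-gene complement list were kept out of the clustering and the naming. The classes of interest were macrophages (1684 cells in 3 clusters), fibroblasts (562), endothelial cells (781), epithelial cells (2374, of which 1327 were basal, 285 sustentacular and 762 non-sensory) and gland cells (453). A further 1524 cells in 5 clusters stayed unnamed. The macrophage clusters had 10 to 12 of 12 macrophage markers raised, the endothelial clusters 7 to 10 of 10, and the gland cluster 9 of 11. Both fibroblast clusters had 8 or 9 of 9 fibroblast markers raised, but also 6 or 8 of 9 markers of mural cells, the contractile cells of vessel walls. Levels are UMIs per 1000000 UMIs of a class (CPM, counts per 1000000) in library 1 and library 2. A gene was called different at an adjusted p under 0.05 in edgeR's quasi-likelihood test of the summed UMIs, adjusted over all genes tested. Nothing in the labels ties the libraries to separate mice, so these p-values measure the spread between 2 libraries, which may be technical. Comparisons that involve the same class share its sums.

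The 3 C1q genes lie side by side on chromosome 4 (mm10), *C1qb* at chr4:136880129-136886187, *C1qc* at chr4:136889804-136893065 and *C1qa* at chr4:136895917-136898803, all on the minus strand, with 3616 and 2851 bases between neighbours. *Cfb* (chr17:34856374-34862518) and *C2* (chr17:34862604-34898265) are separated by 85 bases on the minus strand of chromosome 17. *C4b* (chr17:34728380-34743882) and *C3* (chr17:57203970-57228136) are on the same chromosome and strand. *C1ra* (chr6:124512405-124523443, plus strand) lies 6901 bases from *C1s1*, and *Cfp* (chrX:20925454-20931555, minus strand) is X-linked. Of the 9 members, 5 had a RefSeq (GRCm38.p6) promoter window, and in 3 of these the bases before the start site lay outside the annotated gene body. Of these 3, *C1qb* and *C3* are shown, because their transcripts had the narrowest and one of the widest spreads over classes. The 250 bases before each start site are chr4:136886201-136886450 and chr17:57228137-57228386, both on the minus strand, with GAGGAA, the core recognised by the myeloid factor PU.1, in capitals:
C1qb: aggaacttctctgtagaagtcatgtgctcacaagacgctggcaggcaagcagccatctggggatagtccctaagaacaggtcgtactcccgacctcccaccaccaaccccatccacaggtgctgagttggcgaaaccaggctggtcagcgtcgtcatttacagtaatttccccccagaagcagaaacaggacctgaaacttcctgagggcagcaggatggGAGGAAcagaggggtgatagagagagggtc
C3: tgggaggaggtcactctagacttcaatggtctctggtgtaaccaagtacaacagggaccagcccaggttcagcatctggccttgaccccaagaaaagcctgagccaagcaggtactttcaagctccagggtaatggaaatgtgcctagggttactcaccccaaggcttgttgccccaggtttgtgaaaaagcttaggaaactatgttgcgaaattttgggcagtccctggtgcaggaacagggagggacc
The motif GAGGAA, searched on both strands, was present once in the *C1qb* window, 24 bases before the start site, and was not among these letters for *C3* or *Cfp*. It was found in 23.2% of 32851 promoter windows of this length. The C/EBP-type motif TTNCNNAA had 3 matches in the *C3* window and was found in 36.9% of windows. These matches describe letters, not binding.

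By share of UMIs, the C1q genes went with macrophages, *C1ra*, *C4b*, *Cfb* and *C2* with fibroblasts, and *Cfp* with myeloid cells. *C3* was divided among several classes. By level, *C3* and *C4b* were highest in ensheathing cells. Macrophages held 92.2% of the 76991 *C1qa* UMIs of the kept cells, 92.1% of the 63125 *C1qb* UMIs and 92.1% of the 40125 *C1qc* UMIs. Fibroblasts, with 562 of 10592 cells, held 84.8% of the 1413 *C1ra* UMIs, 56.9% of the 2828 *C4b* UMIs, 50.7% of the 1279 *Cfb* UMIs, 49.6% of the 699 *C2* UMIs and 40.4% of the 764 *C3* UMIs. For *Cfp*, 45.9% of 1022 UMIs were in macrophages, 28.0% in dendritic cells and 9.10% in neutrophils. These shares follow cell numbers as well as levels, and dissociation, freezing and the 5% mitochondrial limit set which cells were counted.

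**Figure D1:**
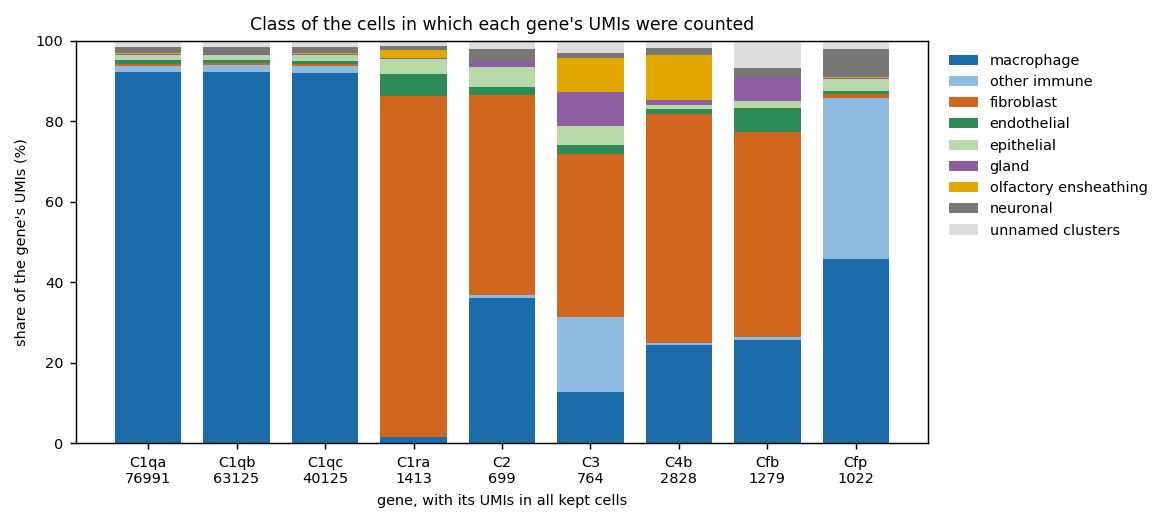
Share of each member's UMIs (y axis, percent of the UMIs of kept cells, both libraries together) by cell class (colours), with 1 bar per gene along the x axis. The C1q bars are 92.1% to 92.2% macrophage, the *C1ra* bar is 84.8% fibroblast, and the *C3* and *Cfp* bars are divided among several classes.

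*C1qa* was at 9799 and 9379 CPM in macrophages, *C1qb* at 8229 and 7490 CPM, and *C1qc* at 5179 and 4805 CPM. No other class overlapped them in either library. Among the other classes of interest, *C1qa* was at 92.7 and 121 CPM in endothelial cells, 96.7 and 66.2 CPM in fibroblasts, 49.9 and 37.0 CPM in epithelial cells and 8.98 and 39.0 CPM in gland cells. Against fibroblasts, macrophages were higher by 7.34 (SE 0.37, adjusted p = 9.1e-14), 7.0 and 7.02 on the log2 scale for *C1qa*, *C1qb* and *C1qc*. Against endothelial, epithelial and gland cells the 3 log2 differences ran from 6.94 to 8.12, and against dendritic cells from 4.73 to 4.78. All 3 genes also passed the test against monocytes and neutrophils.

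Nearly every macrophage carried the full set of C1q transcripts. A macrophage held 98.6 C1q UMIs on average, 89.6% of macrophages held 10 or more, and 93.6% had all 3 genes detected. With each cell of at least 2000 UMIs thinned to that depth, 1207 macrophages had medians of 20 *C1qa*, 16 *C1qb* and 10 *C1qc* UMIs. Across those cells Spearman's rho was 0.55 for *C1qa* and *C1qb*, 0.60 for *C1qa* and *C1qc* and 0.45 for *C1qb* and *C1qc*. These pool macrophages with different medians, and within the 472 *Mrc1*-raised cells rho was 0.38, 0.36 and 0.30. The cells come from 2 libraries and share their depth after thinning, and no test was made.

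Outside macrophages, C1q was found as 2 distinct patterns in single cells. Most cells had none (75.3% of gland cells to 86.1% of neutrophils among the named classes other than macrophages), and cells with fewer than 10 C1q UMIs averaged 0.151 UMIs each in ensheathing cells to 0.344 in gland cells. Mature vomeronasal sensory neurons (VSNs), which are not known for C1q, averaged 0.284. A small number of cells held 10 or more, from 0.398% of neutrophils to 6.83% of dendritic cells, and these carried most of the UMIs in all but 2 of these classes. They held 83.0% of the C1q UMIs of fibroblasts (13 cells), 86.1% in endothelial cells (19), 72.1% in gland cells (8) and 75.3% in epithelial cells (31). The 2 exceptions were neutrophils (29.7%) and basal epithelial cells (28.3%). In B cells a single cell held 149 of 158 C1q UMIs, and in ensheathing cells 137 of 148. Of the 25 dendritic cells with 10 or more C1q UMIs, 17 had been marked as doublets.

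**Figure D2:**
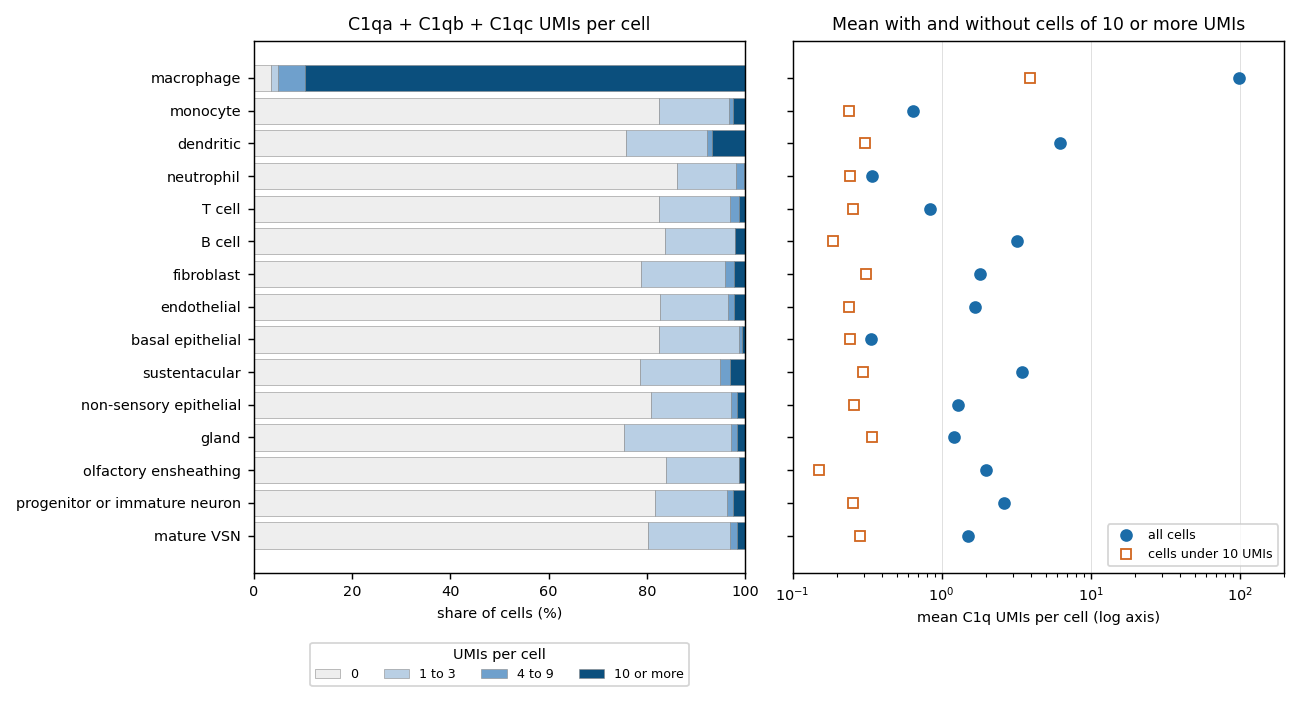
C1q UMIs per cell (*C1qa*, *C1qb* and *C1qc* summed) by class (rows), as the share of cells with 0, 1 to 3, 4 to 9 and 10 or more UMIs (left, percent) and as the mean per cell on a log axis (right, filled circles all cells, open squares cells under 10 UMIs). Macrophages stood apart with 98.6 UMIs per cell, while in the other named classes cells under 10 UMIs averaged 0.151 to 0.344 each and the rest of the signal was in few cells.

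The share of cells with a *C1qa* UMI was 11.0% in fibroblasts, 9.86% in endothelial cells, 9.81% in epithelial cells and 11.5% in gland cells, beside 10.4% in mature VSNs. Among cells of at least 2000 UMIs, thinned to that depth, these were 4.25%, 5.50%, 3.45%, 2.51% and 2.99%. Mature VSNs are a class that should lack the gene. At matched depth endothelial cells, fibroblasts and epithelial cells were above them and gland cells below. These differences, and the part of the cells with 10 or more UMIs in them, were not tested. No expression is read from these shares. The C1q UMIs of macrophages were 42.7% *C1qa*, 35.0% *C1qb* and 22.2% *C1qc*, and those of mature VSNs 44.2%, 35.3% and 20.5%. In fibroblasts the *C1qa* share was 37.2% (95% exact interval 34.2 to 40.3), below that of macrophages. The interval takes each UMI as independent, while 13 cells held 83.0% of these UMIs. It does not cover the spread between cells, so no difference is read from it. Among fibroblast, endothelial, epithelial and gland cells, 9 of the 18 C1q contrasts passed the test, by at most 1.12 on the log2 scale, and 2 passed with DESeq2. The number passing was 5 without doublets, 6 with only the compared classes in the fit and 8 with no low-count filter. It was 8 with thinning (by up to 1.53), 10 with complement genes in the clustering and 11 with the library as a block. At the 10% mitochondrial limit, where the epithelial class was another mix of cells, 13 passed, by up to 1.9. With the cells of 10 or more C1q UMIs left out, a step chosen after seeing the data, edgeR called 0 of the 18. Those cells were removed by the same counts that were compared, so this states where the UMIs lay and is no separate test.

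*C1ra*, which encodes the protease C1r, was a fibroblast transcript. It was at 269 and 263 CPM in fibroblasts and 78.4 and 40.6 CPM in ensheathing cells, the glia of the vomeronasal nerve. Endothelial cells were at 13.2 and 14.6 CPM, macrophages at 2.43 and 3.25 CPM, epithelial cells at 1.94 and 2.45 CPM and gland cells at 0.352 and 0.429 CPM (4 UMIs). Fibroblasts were higher than macrophages by 66.6-fold (log2 6.06, SE 0.22, adjusted p = 4.3e-15), than endothelial cells by 18.7-fold and than epithelial cells by 101-fold. Endothelial cells were 3.56-fold higher than macrophages and 5.38-fold higher than epithelial cells. In fibroblasts 75.8% of cells had a *C1ra* UMI, against 0.459% of mature VSNs. The last 500 bases of *C1ra* share 19.1% of their 50-base words with its copy *C1rb*, which had 1 UMI.

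*C4b*, the substrate that C1s cuts, was highest in ensheathing cells (752 and 568 CPM), followed by fibroblasts (369 and 342 CPM) and macrophages (87.0 and 99.0 CPM), with no overlap between these neighbours. It was at 6.43 and 8.15 CPM in endothelial cells, 1.94 and 5.14 CPM in gland cells and 0.854 and 1.45 CPM in epithelial cells. Fibroblasts were 2.75-fold higher than macrophages (log2 1.46, SE 0.18, adjusted p = 2.9e-07), and macrophages 17.3-fold higher than endothelial cells. By count, fibroblasts had 56.9% of *C4b* UMIs, macrophages 24.3% and the 74 ensheathing cells 11.2%. The last 500 bases of *C4b* share 38.1% of their 50-base words with *C4a*.

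*C2*, the other protein of the classical C3-cutting enzyme, was at 74.0 and 81.1 CPM in fibroblasts and 35.0 and 33.1 CPM in macrophages. All other classes of interest were low, at 1.51 and 3.05 CPM in endothelial, 1.79 and 1.18 CPM in epithelial and 0.528 and 1.29 CPM in gland cells. Fibroblasts were higher than macrophages by 0.71 on the log2 scale (SE 0.18, adjusted p = 0.0027), the smallest of the differences between these classes. Thinned to 2000 UMIs per cell the difference was 0.56 and missed the threshold (adjusted p = 0.10). Macrophages were 19.8-fold higher than endothelial cells. *C2* overlaps *Zbtb12* on the other strand, which had 24 UMIs in fibroblasts against 347 for *C2*, and no source used here says whether the counting used the strand.

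*C3* had no single main source. It was highest in ensheathing cells (166 and 107 CPM) and monocytes (106 and 107 CPM), whose ranges touched, then in fibroblasts (73.2 and 62.6 CPM) and neutrophils (45.0 and 84.4 CPM), whose ranges overlapped. Macrophages were at 9.97 and 16.3 CPM, gland cells at 6.69 and 5.36 CPM, endothelial cells at 1.51 and 4.41 CPM and epithelial cells at 1.48 and 1.64 CPM. Macrophages were the lower side against fibroblasts by 3.75-fold (log2 1.91, SE 0.25, adjusted p = 8.7e-07), against monocytes by 7.21-fold and against neutrophils by 4.21-fold. With thinning to 2000 UMIs the last was 0.29 on the log2 scale and was not called. That setting left out 600 of 753 neutrophils and 477 of 1684 macrophages, which had fewer UMIs. The parts of cell loss and of depth in this change were not tested. Macrophages were 5.84-fold higher than endothelial cells, and did not pass the test against gland cells (log2 0.43, 95% interval -0.22 to 1.07). At the 10% mitochondrial limit they were higher than gland cells by 1.51 on the log2 scale (adjusted p = 0.0011).

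*Cfb*, factor B of the alternative pathway, was at 147 and 141 CPM in fibroblasts, 41.8 and 47.2 CPM in macrophages, 12.5 and 14.9 CPM in endothelial cells, 9.33 and 4.93 CPM in gland cells and 0.777 and 1.18 CPM in epithelial cells. Fibroblasts were 2.33-fold higher than macrophages (log2 1.22, SE 0.19, adjusted p = 7.3e-06), 10.3-fold higher than endothelial cells and 121-fold higher than epithelial cells. Endothelial cells were 11.7-fold higher than epithelial cells, and differed from gland cells by -0.22 on the log2 scale (95% interval -0.81 to 0.38). Of the last 500 bases of *Cfb*, 91.6% of 50-base words are shared with the readthrough transcript *Gm20547*, which spans *C2* and *Cfb* and was not among the counted genes.

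**Figure D3:**
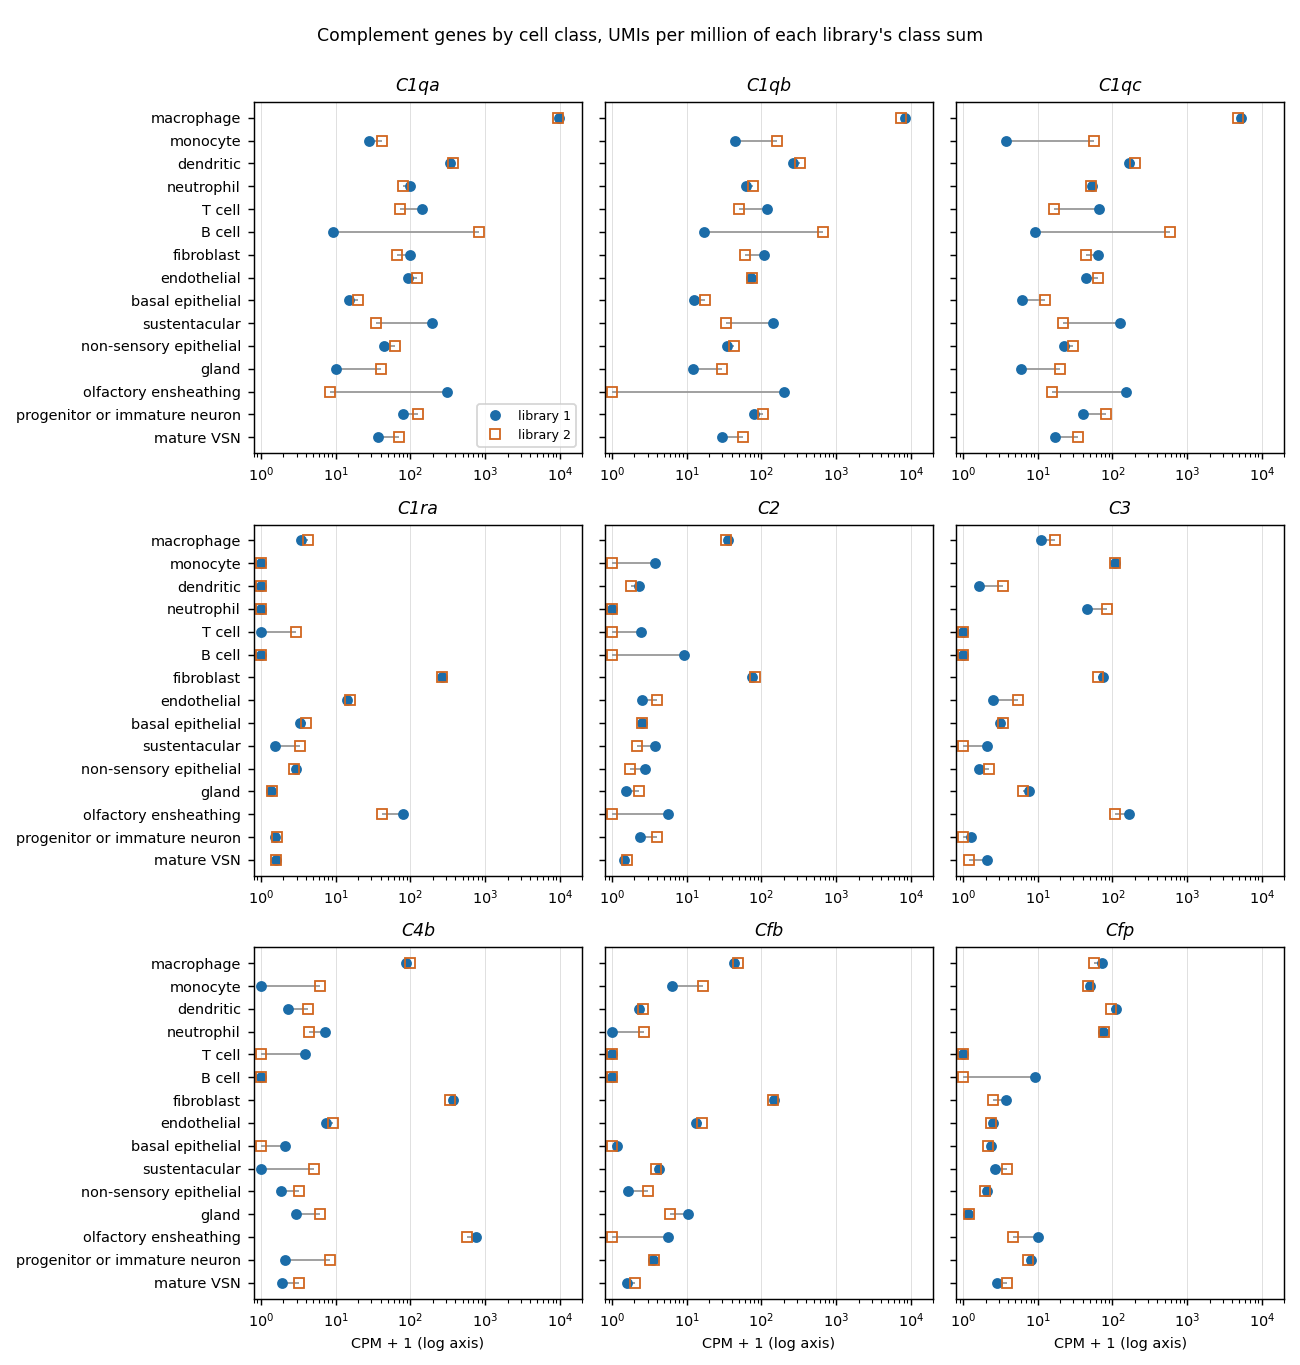
Level of each member (x axis, CPM + 1 on a log scale, 1 panel per gene) in each named class (rows), with a filled circle for library 1 and an open square for library 2. The C1q points of macrophages lie above those of all other classes, fibroblasts lead the macrophages for *C1ra*, *C2*, *C3*, *C4b* and *Cfb*, and *Cfp* is at 46.0 CPM or more in macrophages, monocytes, dendritic cells and neutrophils.

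*Cfp*, properdin, was a transcript of myeloid cells. It was at 111 and 94.2 CPM in dendritic cells, 74.4 and 76.0 CPM in neutrophils, 70.6 and 56.1 CPM in macrophages and 49.0 and 46.0 CPM in monocytes. In fibroblasts (2.74 and 1.54 CPM, 10 UMIs), endothelial cells (8 UMIs), epithelial cells (32 UMIs) and gland cells (2 UMIs) it was at or below the level in mature VSNs (1.84 and 2.84 CPM) in 1 or both libraries. Macrophages were lower than dendritic cells by 0.71 on the log2 scale (SE 0.17, adjusted p = 0.0030; 0.48 and adjusted p = 0.0504 at the 10% mitochondrial limit), and passed no test against neutrophils (log2 -0.02, 95% interval -0.44 to 0.39) or monocytes (0.58, 95% interval 0.01 to 1.15, adjusted p = 0.23). Against fibroblasts macrophages were 39.0-fold higher.

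Counted over the members, all 9 differed between macrophages and fibroblasts. Macrophages were higher in 4 (C1q and *Cfp*), where 22.3% of all genes were called higher, and lower in 5, where 24.5% were called lower. Against endothelial cells macrophages were higher in 8 members (20.6% of all genes) and lower in *C1ra* alone (21.2%). Against epithelial cells 8 were higher (23.6%) and *C1ra* was not called (log2 0.60, adjusted p = 0.14; 1.23 and adjusted p = 0.0045 at the 10% mitochondrial limit), and against gland cells 8 were higher (24%) and *C3* was not called. At the 10% limit the epithelial class held only clusters named basal or sustentacular, so it was another mix of cells. Fibroblasts were higher than endothelial cells in 5 members (17.7%), than epithelial cells in 7 (22.1%) and than gland cells in 8 (23.3%). *C1ra*, *C2*, *C3*, *C4b* and *Cfb* were among the members called in each of these 3 comparisons, and the others were C1q genes and, against gland cells, *Cfp* with 10 against 2 UMIs. Against epithelial cells the others were *C1qb* and *C1qc*. The *C1qc* call was lost with DESeq2, with no low-count filter, without doublets and with thinning, and that of *C1qb* without doublets. Endothelial cells were higher than epithelial cells in 6 members (21.5%), namely the C1q genes, *C1ra*, *C4b* and *Cfb*. Of these, *C1qb* and *C1qc* were lost with DESeq2, *C1qc* without doublets and *C4b* with thinning. They were higher than gland cells in *C1qa*, *C1qc* and *C1ra* (24.7%) and lower in *C3* (20.7%). Epithelial cells were higher than gland cells in *C1ra* (22.6%) and lower in *C3*, *C4b* and *Cfb* (16.6%). With thinning to 2000 UMIs the *C1ra*, *C3* and *C4b* calls between epithelial and gland cells were lost, and without doublets, with thinning and with DESeq2 the C1q and *Cfp* calls of fibroblasts against gland cells were lost. Thinning also ended the *C1ra* call of macrophages against gland cells (21 against 4 UMIs).

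Among myeloid classes, macrophages were higher than monocytes in 6 members (6.12% of all genes) and lower in *C3* (5.12%), with *C1ra* and *Cfp* not called. They were higher than dendritic cells in 8 (9.26%) and lower in *Cfp* (9.32%). They were higher than neutrophils in 7 (17.8%) and lower in *C3* (12.3%). Among the 7 was *C1ra*, with 21 UMIs in macrophages against 0 in neutrophils. That call was lost with DESeq2, with only these classes in the fit, at the wider mitochondrial limit and with thinning. Thinning also ended the *C1ra* call against dendritic cells and the *Cfb* call against monocytes. *C1ra* was at 0 UMIs in dendritic cells, against which macrophages were at least 2.62-fold higher, taking 3 UMIs over the class as the floor. *C2* was at 0 UMIs in neutrophils, at least 14.1-fold lower than in macrophages by the same floor.

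**Figure D4:**
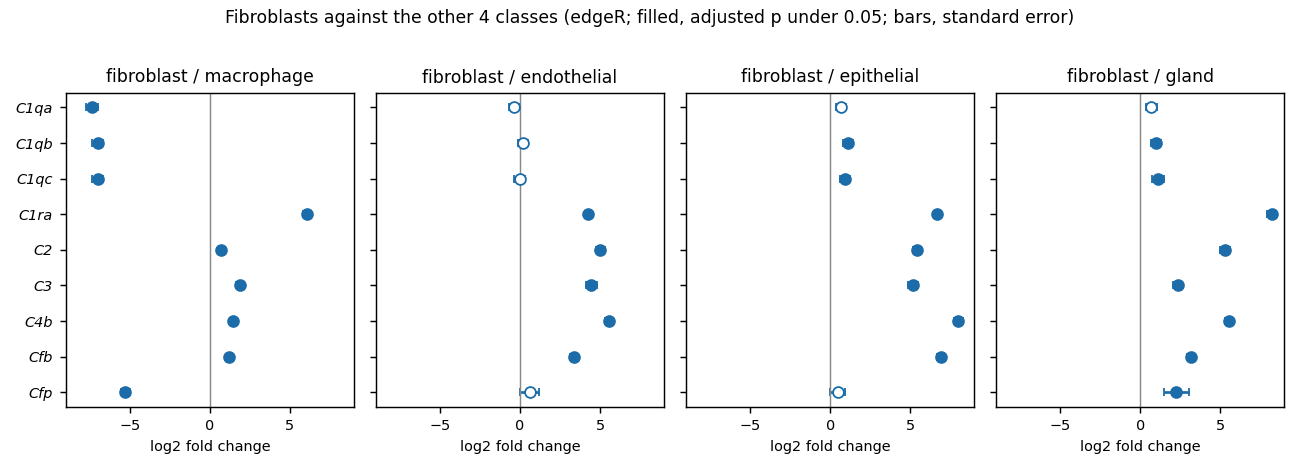
Difference of fibroblasts from macrophage, endothelial, epithelial and gland cells for each member (x axis, log2 fold change, bars 1 SE, filled points called at an adjusted p under 0.05). *C1ra*, *C2*, *C3*, *C4b* and *Cfb* were higher in fibroblasts in all 4 comparisons, the smallest being *C2* against macrophages.

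Replicate-library pairing changed 3 of these calls. With the library as a block, *C1qa* was higher in fibroblasts than in epithelial cells (log2 0.67, adjusted p = 0.048), *C1qb* higher in endothelial than in gland cells (0.77, adjusted p = 0.040) and *Cfp* higher in epithelial than in gland cells (1.79, adjusted p = 0.034).

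Within macrophages, the cluster with raised *Mrc1*, a mannose receptor of resident macrophages (488 cells), was set against the other 2 clusters. Raised here meant at least 4-fold over all other cells, and *Mrc1* was 140-fold higher in this cluster. The others were 702 cells led by *Mmp12* (1.55-fold) and 494 shallow cells with a median of 840 UMIs (3.83-fold, just under the limit). The *Mrc1*-raised cells were higher in 5 members, where 7.26% of all genes were called higher. *C4b* was at 226 and 234 CPM against 17.4 and 17.8 CPM (10.6-fold, log2 3.40, SE 0.17, adjusted p = 6.3e-10), and was detected in 47.1% of these cells against 5.02% of the others. *Cfp* was at 159 and 120 CPM against 26.3 and 17.8 CPM (5.07-fold, adjusted p = 8.1e-07), and *C2* at 68.6 and 64.2 CPM against 18.2 and 14.3 CPM (3.28-fold, adjusted p = 2.3e-05). For comparison, without a test, *C2* was at 74.0 and 81.1 CPM in fibroblasts and *Cfp* at 111 and 94.2 CPM in dendritic cells. *C1ra* passed with 16 against 5 UMIs. *C1qc* was higher by 0.40 on the log2 scale (SE 0.10, adjusted p = 0.0094), *C1qa* by 0.25 (adjusted p = 0.066; 0.00030 with the library as a block), and *C1qb* by 0.03 (95% interval -0.18 to 0.23). *C3* and *Cfb* did not pass. All 5 calls held without the shallow cluster, and those of *C1qc* and *C1ra* were lost with no low-count filter and at the 10% mitochondrial limit, and that of *C1ra* with DESeq2 as well. At the 10% limit the groups changed. A shallow cluster of 1058 cells (median 782 UMIs, *Mrc1* raised 10.0-fold) joined 546 *Mrc1*-raised cells, against 768 cells on the other side. At a clustering resolution of 0.5 no member was called, where a cluster of 936 cells with *Mrc1* raised 7.20-fold joined the raised group and only a shallow cluster was left on the other side.

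Within fibroblasts, the 2 clusters differed in which components were high, given here without a test. The 387 cells led by *Mfap5* and *Dpt* had *C3* at 100 and 96.8 CPM against 28.3 and 1.43 CPM in the 175 cells led by *Cytl1* and *Cemip*. The *Cytl1* cells had more *C4b* (499 and 506 against 291 and 250 CPM) and more *Cfb* (217 and 214 against 105 and 100.0 CPM). *C1ra* (281 and 232 against 247 and 318 CPM) and *C2* (73.2 and 72.0 against 75.3 and 97.5 CPM) were similar or overlapped. Of all fibroblasts, 88.6% had a UMI of at least 1 of *C1ra*, *C2*, *C3*, *C4b* and *Cfb*, against 2.64% of mature VSNs. *Cfb* was detected in 57% of the 79 fibroblasts with *C3* and in 35.6% of those without, and *C4b* in 78.3% of those with *Cfb* and 47.2% of those without, with cell depth not matched. At the 10% mitochondrial limit, mural cells separated as 240 cells with 115 *C4b*, 66 *C1ra*, 2 *Cfb* and 0 *C3* UMIs (a count of 0 allows up to 3), beside 2807, 1718, 1019 and 446 UMIs in 914 fibroblasts.

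Endothelial cells had low levels that differed between clusters. In the 398 cells led by *Ly6c1*, *Cfb* was at 22.5 and 19.0 CPM and *C1ra* at 9.18 and 5.77 CPM. In the 347 cells with *Selp* and *Sele*, adhesion molecules of venous endothelium, *Cfb* was at 3.75 and 10.3 CPM and *C1ra* at 17.3 and 23.1 CPM. The 36 cells with lymphatic genes such as *Prox1* had *C3* at 8.88 and 34.0 CPM, from 7 UMIs in all. These differences between endothelial clusters were not tested.

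Gland and epithelial cells contributed little, with an exception for *Cfb* and *C3*. Of 76 *Cfb* UMIs in gland cells, 73 were in 37 cells, as were 42 of 63 *C3* UMIs. These 37 cells had *Cfb* at 150 and 92.6 CPM and *C3* at 80.9 and 61.7 CPM, whereas the other gland cells with a match at the wider limit (411 cells) had *Cfb* at 0.188 and 0.453 CPM and *C3* at 1.88 and 2.49 CPM. At the 10% mitochondrial limit, the 37 cells fell in an unnamed cluster of 221 cells led by *Msln*, *Lcn2* and *Cxcl5*, of which 50 were within the 5% limit. That cluster had *Cfb* at 219 and 273 CPM and *C3* at 150 and 195 CPM, beside 134 and 120 CPM of *Cfb* in the larger fibroblast cluster of the same setting and 266 and 200.4 CPM in the smaller, whose values overlapped it. *C3* was at 92.6 and 87.5 CPM and at 24.2 and 3.69 CPM in these fibroblast clusters, and at 349 and 273 CPM in the 243 ensheathing cells. The *Msln*-led cluster held 32.5% of *Cfb* UMIs there, and the fibroblast clusters 19.6% and 14.1%. Of *C3* UMIs it held 31.7%, ensheathing cells 20.9% and the fibroblast clusters 19.3% and 1.24%. For *C3* the largest share was thus in another class than at the 5% limit. Gland cells were then at 0.176 and 0.637 CPM for *Cfb*, which was higher in endothelial cells by 4.19 on the log2 scale, while the difference of epithelial from gland cells was 0.95 (SE 0.71, adjusted p = 0.32) and did not pass. The epithelial class of that setting held no cluster named non-sensory.

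**Figure D5:**
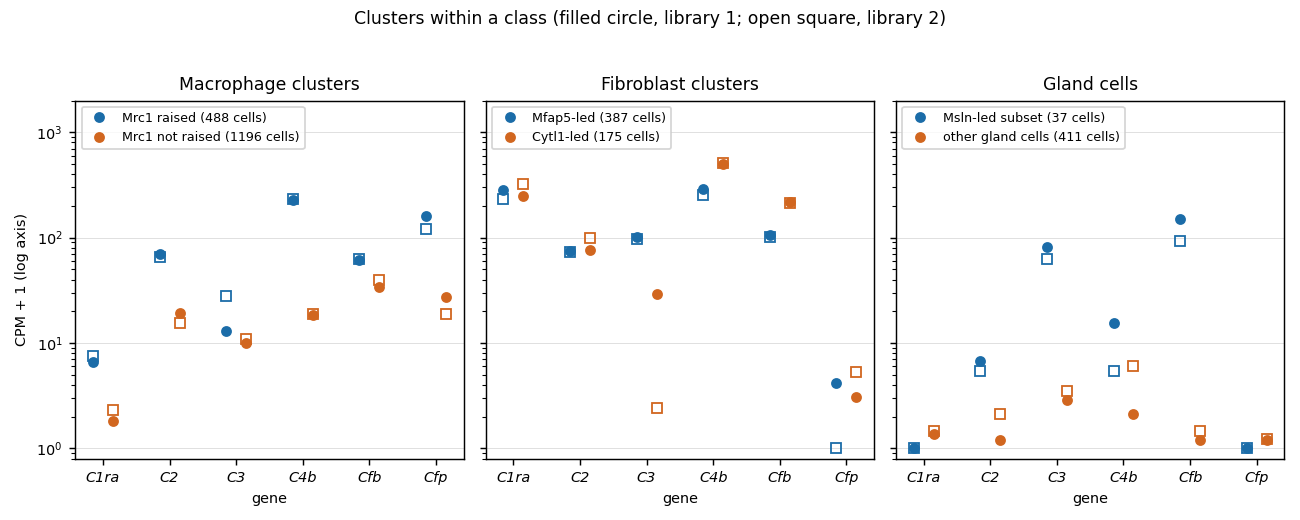
Levels (y axis, CPM + 1 on a log scale, filled circle library 1, open square library 2) of 6 members (x axis) in macrophage clusters, fibroblast clusters and subsets of gland cells. *C4b*, *Cfp* and *C2* were higher in the *Mrc1*-raised macrophages, *C3* in the *Mfap5*-led and *C4b* and *Cfb* in the *Cytl1*-led fibroblasts, and *Cfb* and *C3* in the 37 gland cells that grouped with *Msln*-led cells.

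Between the epithelial classes, basal cells were lower than sustentacular cells, the supporting cells of the sensory epithelium, in 4 members (19.9% of all genes were called lower), namely the 3 C1q genes and *Cfb* (1 against 11 UMIs). The C1q differences of 2.32 to 2.86 on the log2 scale rested on cells with 10 or more C1q UMIs, which held 91.7% of the C1q UMIs of sustentacular and 28.3% of those of basal cells, and sustentacular *C1qa* was at 193 CPM in library 1 and 33.4 CPM in library 2. No member was called by edgeR between basal and non-sensory cells (background 6.61%, 4 members at an unadjusted p under 0.05, 0 by DESeq2) or between sustentacular and non-sensory cells (background 35.3%, 0 unadjusted, 0 by DESeq2). Levels of *C1ra*, *C2*, *C3*, *C4b*, *Cfb* and *Cfp* in the 3 classes were between 0 and 4.10 CPM.

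Of the other 45 genes of the complement list, chosen by role, 15 reached 50 CPM in both libraries of a class, 25 had UMIs below that, and 5 (*Mbl1*, *C8a*, *C8b*, *C9*, *C4bp*) had none. *C1s1*, the partner protease of C1r, was at 295 and 310 CPM in fibroblasts and below 15 CPM in every other class of interest and in ensheathing cells. *Serping1*, the inhibitor of C1r and C1s, was at 1318 and 1132 CPM in fibroblasts, and *Colec12*, a scavenger receptor collectin, at 419 and 494 CPM. *Clu*, a fluid-phase inhibitor of the terminal complex, was at 628 and 526 CPM in endothelial and 617 and 604 CPM in gland cells. Of membrane regulators, *Cd55* was highest in B cells (308 and 243 CPM), *Cd59a* in ensheathing cells (411 and 328 CPM) and *Csmd1* in ensheathing cells (92.3 and 99.5 CPM). *Cr1l* was highest by mean in mature VSNs (116 and 106 CPM), and its level in endothelial cells (99.1 and 114 CPM) overlapped theirs.

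Receptors were in leukocytes and endothelium. *C3ar1*, the C3a receptor, was at 331 and 301 CPM in macrophages, and *C5ar1*, the C5a receptor, at 391 and 458 CPM in neutrophils. *Itgam* (271 and 280 CPM) and *Itgax* (225 and 248 CPM), the alpha chains of complement receptors 3 and 4, were highest in neutrophils, their common beta chain *Itgb2* in monocytes (370 and 317 CPM), and *Cd93* in endothelial cells (380 and 439 CPM). The 7 terminal pathway genes had 168 UMIs in all. Of the 30 other list genes tested between macrophages and fibroblasts, 10 were higher in macrophages, 13 lower and 7 not called (median log2 difference -1.60, against 0 over all genes). Between fibroblasts and epithelial cells 15 were higher, 1 lower and 14 not called (median 1.52, against -0.04 over all genes).

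Over the 15 classes and 7144 genes, the genes with the most similar pattern of levels were *Ms4a7* for all 3 C1q genes (Pearson's r 0.944, 0.983 and 0.960), *Col5a1* for *C1ra* (0.964), *Adam33* for *C2* (0.921) and *Cfb* (0.886), *Rab31* for *C3* (0.857), *Col14a1* for *C4b* (0.965) and *Csf2ra* for *Cfp* (0.963). *Ms4a7* was also a marker used to name macrophages. The classes share libraries, and these values are descriptions.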

How the data were processed

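The authors sequenced 2 droplet libraries of 10x 3' cDNA. Per the labels' processing notes Cell Ranger 4, Seurat 3.2.3 and mm10 were used. The deposited matrix holds UMI counts per gene and cell, not normalized; the share of reads behind each UMI and any depth matching between libraries are not given in the sources used here.

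The quality filter passed barcodes with 200 to 9000 detected genes and a mitochondrial share of up to 5% (10592 of 24084; 18705 at 10%). Seurat 5.3.0 in R 4.3.3 clustered them (2000 variable genes without the 54 complement-list genes, 30 components, resolution 0.8, 33 clusters). A cluster took the class with the largest share of its markers raised 2-fold, with at least 3 raised; this threshold was chosen after seeing the data. *C1qa* and *C1qb*, by which the study named macrophages, were not used. Scrublet in scanpy 1.11.5 marked 172 doublets, which stayed in unless stated.

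UMIs were summed per library and class, and tested with edgeR 4.0.16 (TMM, quasi-likelihood, at least 10 UMIs per gene, 16810 genes tested, Benjamini-Hochberg, threshold 0.05) over 8 classes in 1 fit, with separate fits for the 3 epithelial classes and the macrophage groups. Intervals of log2 differences are t intervals from the fit's SE. CPM is UMIs of a gene per 1000000 UMIs of the class. Intervals of shares are exact (Clopper-Pearson, 95%) and, like the floor of 3 UMIs, cover counting error only. Scripts were tested on simulated counts.

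The 2 sums of a library come from the same capture, so the library pairs the classes: over 28 pairs of classes, deviations from class means had correlations of 0.0019 to 0.134 (median 0.0502), which are weak. The members and lists were chosen with earlier results of these data known. All 9 members were named, and other list genes at 50 CPM in both libraries of a class. The values of 1 such gene are not reported here. Alternatives were DESeq2 1.42.0, no low-count filter, doublets out, thinning to 2000 UMIs, the 10% limit, resolutions 0.5 and 1.2, complement genes in the clustering, 2 classes per fit, the library block and each library alone; leaving out C1q-high cells and the shallow macrophage cluster was added after seeing the data. Thinning left out the cells with fewer than 2000 UMIs, such as 477 of 1684 macrophages, 600 of 753 neutrophils and 94 of 453 gland cells. All columns of the matrix were mapped to a library.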

Additional observations from a re-analysis of the deposited data

Results flagged for a closer look

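Signal appeared in a cluster that formed only when cells removed by the 5% mitochondrial limit were added back. In the cluster of 221 cells led by *Msln*, *Lcn2* and *Cxcl5*, formed when cells up to 10% were kept, 50 cells were within the 5% limit and 37 of these had been in the gland class. Over all 221 cells *Cfb* averaged 246.2 CPM and *C3* averaged 172.8 CPM over the 2 libraries, above the limit that a count of 0 allows. *Cfb* was detected in 68.3% of these cells and *C3* in 46.6%. The cause was not tested.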

How the results depend on the processing

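Of 1934 recomputed values, 1828 kept their direction and side of the threshold, 66 lost a call, 33 gained one and 7 reversed. The number of members called stayed within 1.5 times its value in 199 of 218 recomputations. It fell to 5 for fibroblasts against gland cells with DESeq2, with doublets left out, with thinning to 2000 UMIs and with C1q-high cells left out. For endothelial against gland cells it fell to 2 with DESeq2, with only the 2 classes in the fit and without C1q-high cells. For endothelial against epithelial cells it fell to 3 without C1q-high cells, and for epithelial against gland cells to 1 with thinning. For basal against sustentacular cells it fell to 2 with thinning, and to 1 without C1q-high cells and at resolution 0.5. For basal against non-sensory cells it rose to 3 with 2 classes in the fit and to 1 at resolution 0.5. For sustentacular against non-sensory cells it rose to 4 without doublets and 1 at resolution 0.5. At resolution 0.5 only a cluster of 33 cells led by *AU040972*, *Clca3b* and *Gm19935* took the non-sensory name. A cluster of 699 cells led by *Krt13* and *Spink5* was named basal there, so these classes held other cells than in the main setting. For the *Mrc1*-raised macrophages it fell to 3 with no filter and at the 10% limit, and to 0 at resolution 0.5. At the 10% limit and at resolution 0.5 other clusters made up the raised group.

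Without C1q-high cells, which were chosen by the tested counts, reversed log2 values were -0.037 for *C1qc* between endothelial and gland cells, and 0.57, 0.64 and 0.22 for *C1qa*, *C1qb* and *C1qc* between basal and sustentacular cells. At the 10% limit *Cfb* reversed to 4.19 between endothelial and gland cells and to 0.95 between epithelial and gland cells, where the 37 gland cells with most *Cfb* left the class. *Cfb* reversed to -5.13 between sustentacular and non-sensory cells at resolution 0.5, where the non-sensory class was the 33 cells led by *AU040972*. That value compares other cells than the main setting, and the cause was not tested. With the library as replicate block, the count of members called stayed within 1.5 times in all 17 comparisons (9 for macrophages against fibroblasts), and beyond the calls given above it changed none. Each library alone leaves no residual degrees of freedom, so it gave folds without a test, and all 101 called differences had the same sign in both libraries. The calls were made from these same 2 libraries, so the shared sign is no separate support. The comparisons with non-sensory cells could not be made at the 10% limit, where no cluster took that name. The epithelial class at that limit held only clusters named basal or sustentacular, with 1391 cells in the sustentacular cluster. Its values there are thus not of the same mix of cells as at 5%. Counts limited the precision of *C1ra* and *Cfp* in gland cells, which had 4 and 2 UMIs.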

Other observations

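A further source of *Cfb* stood among the unnamed cells. A cluster of 153 cells led by *AU040972*, *Clca3b*, *Sntn* and *Tmem212*, the last of which are genes of ciliated cells, had *Cfb* at 71.3 and 176 CPM, with a median of 1093 UMIs per cell. At the 10% mitochondrial limit a cluster of 105 cells with the same leading genes had *Cfb* at 147 and 186 CPM, detected in 43.8% of cells, while *C3* was at 4.13 and 1.66 CPM. By its markers that cluster took the name tuft (4 of 7 raised, with 4 of 8 of non-sensory epithelium), which its leading genes go against, so it is given by those genes. Of these 105 cells, 34 were within the 5% limit. These values were seen after the data were examined and were not tested.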
